A study of Medicago sativa with 9 samples.

Results

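The response of alfalfa leaves (Medicago sativa, a forage legume whose cultivated form carries 4 copies of each of 8 chromosomes) after 48 h of selenite is described here across the genes of the deposited table. Members were chosen by their labels: 6 of the 9 libraries of the series, 3 labelled 48 h and 3 labelled 0 h, while the other 3 are labelled 12 h and entered the filter on low values, the scaling and the estimate of the spread, not the contrast. The 48 h leaves were taken 48 h into a treatment with 100 mg per kg of selenium as Se(IV), the oxidation state of selenite, and the leaves set against them were taken at 0 h of the same treatment. By the labels' protocol, poly(A) RNA was isolated with oligo-T beads and sequenced from both ends as inserts of about 300 bp; the same text also names an adipose sample and both poly(A)- and poly(A)+ fractions, so the RNA selection is uncertain. The labels name no cultivar, plant age or untreated leaves at 48 h, so the effects of selenite and of the time that passed cannot be told apart. They also do not give the hour of sampling or state that replicate libraries are different plants, so the p-values measure the spread between libraries, which may be technical.

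Plant cells take up selenite largely through phosphate transporters and reduce it with glutathione and other thiols to selenide, which enters the enzymes of cysteine and methionine synthesis in place of sulfide. The immune response of leaves, known best from Arabidopsis, runs from receptor-like kinases at the cell surface through calcium-dependent kinases and MAP kinase cascades to WRKY factors and to the calmodulin-binding regulators CBP60g and SARD1, which switch on salicylate synthesis. In legumes the phenylpropanoid route that follows also feeds isoflavonoid phytoalexins.

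The table listed 164632 genes, of which 63624 had no count in any of the 9 libraries, and each homologous chromosome copy was listed as a gene of its own. Total counts per library were 42719809, 41236144 and 44570008 in 48 h replicates 1, 2 and 3, against 46909627, 40426095 and 39936347 in 0 h replicates 1, 2 and 3. Because reads of near-identical copies can be assigned to one another, counts of genes with the same description on the same numbered chromosome were summed into 1 entry, which also joins tandem paralogs of one description. Levels are CPM (counts divided by the library total and set to a common scale) adjusted by the trimmed mean of M-values (TMM), and changes are log2 of 48 h over 0 h with the standard error (SE) of an edgeR quasi-likelihood fit of all 9 libraries. An entry was called at a Benjamini-Hochberg adjusted p of 0.05 over all entries tested. The median change of all entries was -0.05 on the log2 scale, against -0.15 when library totals alone set the scale.

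Replicate 2 of 48 h stood apart from replicates 1 and 3. Over 2824 sets of 4 copies with at least 200 counts in every library, a median of 10.6% of counts lay on other copies between 48 h replicates 1 and 3, against 23.6% between replicates 2 and 1 and 22.8% between replicates 2 and 3. The 3 pairs of 0 h libraries differed by 21.03% to 24.1%, so replicates 1 and 3 are the pair that is alike in this measure. The 3 values of each time are given for every entry the results turn on, and for the larger lists calls without 48 h replicate 2 are given as well. Leaf markers (Rubisco small chains, carbonic anhydrases and antenna proteins) summed to 175019, 183356 and 129221 FPKM in the 48 h libraries, against 112881, 158158 and 165994 FPKM in the 0 h libraries, and edgeR called 0 of 44 measured entries, with 7 at an unadjusted p of 0.05 (DESeq2 called 4 higher and 2 lower). Of the other marker lists, guard cell markers had 1 of 11 entries called lower (the kinase SRK2E), flower and seed markers 1 of 22 called higher (DESeq2 called 3 guard cell markers lower and 2 flower and seed markers higher), and vascular markers and root and nodule markers 0 of 15 and 0 of 18 by edgeR. At an unadjusted p of 0.05 these held 2 and 3 entries, and DESeq2 called 2 vascular markers lower, and 1 root and nodule marker higher and 1 lower. Guard cell markers summed to 57.0, 65.7 and 78.9 FPKM at 48 h, against 144, 102 and 105 FPKM at 0 h, and flower and seed markers to 627, 597 and 666 FPKM at 48 h, against 349, 574 and 451 FPKM at 0 h; neither overlapped between the times. Vascular markers summed to 97.0, 89.8 and 217 FPKM in the 48 h libraries, against 766, 1135 and 103 FPKM in the 0 h libraries, and root and nodule markers to 464, 263 and 561 FPKM at 48 h, against 345, 467 and 185 FPKM at 0 h. The part of these shifts in the results below was not tested, and in whole leaves fewer cells of a type and less RNA per cell cannot be told apart.

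After 48 h of selenite, many called kinases, resistance proteins and regulators of the immune response were higher than at 0 h, and called cytosolic ribosomal proteins and several starch enzymes were lower. Of 25943 entries tested, 948 were called, which is 3.65%, with 512 higher (1.97%) and 436 lower (1.68%). These shares are the background for the counts called in each list below. The 3 libraries of each time did not overlap in any of the 948 called entries; over all entries tested, 11.6% were higher and 13.1% lower with no overlap. Scaling by library totals alone gave 400 higher and 619 lower. Without 48 h replicate 2 the same test called 2527 entries, 1083 higher (4.17%) and 1444 lower (5.57%), and 912 of the 948 were among those called again in the same direction. The fit of the 6 libraries alone, which has fewer degrees of freedom for the spread, called 117 entries (0.451%), 84 higher (0.324%) and 33 lower (0.127%), and 107 of these were among the 948. With 48 h replicates 1 and 3, which are alike in their use of chromosome copies, summed as 1 library, 230 entries were called. For single chromosome copies, 582 of 50878 genes were called (1.14%), 329 higher (0.647%) and 253 lower (0.497%), and for 410 of them the summed entry was called the same way.

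**Figure D1:**
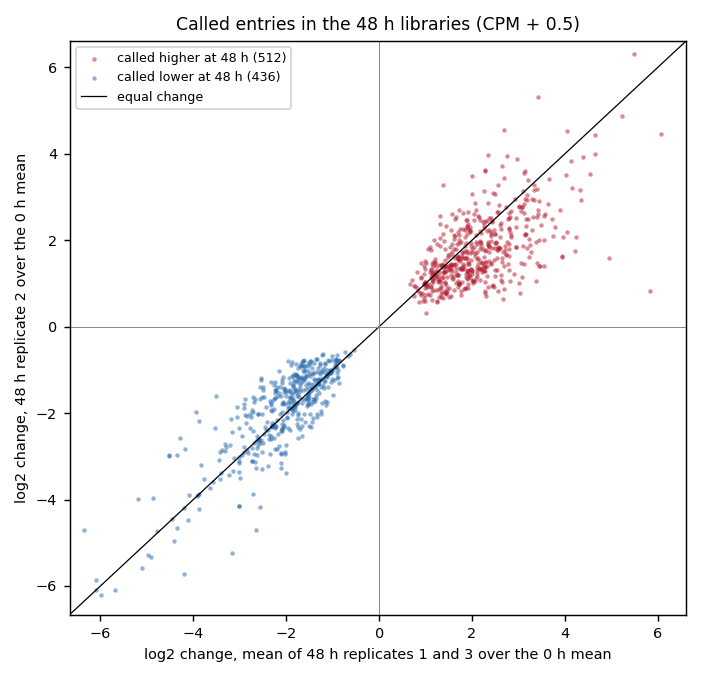
Log2 change of the 948 called entries in 48 h replicate 2 (vertical) against the mean of 48 h replicates 1 and 3 (horizontal), both over the mean of the 0 h libraries with 0.5 CPM added; each point is 1 entry, red called higher and blue called lower at 48 h, and the line marks equal change. Points called higher lie mostly below the line: their median change was 2.01, 1.58 and 1.98 in replicates 1, 2 and 3, and replicate 2 moved least in 328 of 512.

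The plot of replicate 2 against the other 48 h libraries shows 1 direction for every called entry and a smaller size in replicate 2 for many. Among entries called higher, replicate 2 moved least of the 3 libraries in 328 of 512, and among those called lower in 197 of 436. The median change of the entries called lower was -1.91, -1.69 and -1.89 in replicates 1, 2 and 3.

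Kinases that carry immune signals from the membrane inward were among the entries with the smallest adjusted p. The receptor-like cytoplasmic kinase RLCK176, which in rice relays signals from the chitin receptor, had 302, 196 and 244 CPM at 48 h, against 17.9, 11.3 and 7.997 CPM at 0 h. The 48 h libraries stood far above the 0 h libraries, and the log2 change was 4.32 ± 0.49 (SE; adjusted p = 0.00846). Its copy with the most 48 h counts, MS.gene004036, lies on the minus strand of chromosome copy 4.3 at 39737240 to 39739857 in the authors' coordinates, whose build is not given in the sources used here. Calcium-dependent protein kinase 28, which in Arabidopsis promotes the turnover of the immune kinase BIK1, had 190.4, 153 and 116 CPM at 48 h, against 17.02, 19.8 and 13.8 CPM at 0 h. All 4 copies were higher in mean count, led by MS.gene59468 on the plus strand of copy 5.4 at 13663306 to 13668968, and the log2 change was 3.18 ± 0.26 (SE; adjusted p = 0.00632). Calcium-dependent protein kinase 32 had 161, 124 and 136 CPM at 48 h, against 42.1, 36.6 and 34.9 CPM at 0 h, with a log2 change of 1.89 ± 0.21 (SE; adjusted p = 0.00774). Of 100 calcium sensors and kinases measured, 8 were called higher (8%, beside 1.97% of all entries) and 0 lower (beside 1.68%). The median change of the list was 0.46, against -0.05 for all entries. The other 6 were the kinase CIPK5, the calcium pumps ATPase 2 and ATPase 12 of the plasma membrane type, and the calmodulin-like proteins CML24, CML35 and CML49. ATPase 2, which moves calcium out of the cytosol, had the largest change of the 6, with 476, 578 and 248 CPM at 48 h, against 57.6, 72.0 and 28.6 CPM at 0 h (log2 change 3.04). Without 48 h replicate 2, 16 members were called higher and 1 lower.

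Of 36 members of the MAP kinase cascade, 6 were called higher (16.7%, beside 1.97% of all entries) and 0 lower (beside 1.68%). Without 48 h replicate 2, 7 were called higher and 0 lower. An entry of the MAP kinase MMK2, an alfalfa homolog of Arabidopsis MPK4, on chromosome 8 had 509.7, 315 and 445 CPM at 48 h, against 89.7, 95.3 and 80.7 CPM at 0 h. Replicate 2 was the lowest of the 48 h libraries and lay above every 0 h library, with a log2 change of 2.26 ± 0.23 (SE; adjusted p = 0.00691). The MMK2 entries on chromosomes 4, 5 and 7 were not called, with log2 changes of 0.42, 1.81 and -0.27, nor was the single gene MS.gene058518. An entry described as a MAP kinase of the CMGC family had 424, 312 and 372 CPM at 48 h, against 57.2, 45.0 and 17.8 CPM at 0 h. Its 0 h libraries differed among themselves and stayed far below the 48 h libraries, and the log2 change was 3.21. MAP kinase kinase 9, an upstream activator that in Arabidopsis promotes ethylene production, had 47.1, 41.1 and 48.03 CPM at 48 h, against 2.86, 7.35 and 1.95 CPM at 0 h (log2 change 3.48). The remaining calls were MAPKKK1 isoform X1 at 2.11, a MAP kinase 1 entry at 2.098 and MAP kinase 15 isoform X1 at 1.02 on the log2 scale. Other MAPKKK1 entries, on chromosomes 3, 4 and 5, and the MAP kinase 15 entry on chromosome 8 were not called. The list as a whole was less shifted, with a median change of 0.38.

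Receptor-like kinases, which sense peptides, sugars and fragments of microbes outside the cell, held the most calls of the 59 lists. Of 348 measured, 37 were called higher (10.6%) and 4 lower (1.15%), beside 1.97% and 1.68% of all entries; without 48 h replicate 2 these were 72 and 12. Their median change was 0.59, and by library it was 0.62, 0.30 and 0.59 in 48 h replicates 1, 2 and 3. An example is the receptor-like protein kinase At5g24010, a kinase named for its Arabidopsis counterpart, with 299.97, 214 and 278 CPM at 48 h, against 74.0, 81.0 and 64.2 CPM at 0 h (log2 change 1.85). Among cytoplasmic resistance proteins of the TIR and NBS-LRR kind, which recognise pathogen effectors, 15 of 118 were called higher (12.7%) and 2 lower (1.69%), and without 48 h replicate 2 there were 24 and 2. An entry on chromosome 2 described only as TIR had 229, 125 and 133 CPM at 48 h, against 15.5, 19.1 and 24.7 CPM at 0 h, with a log2 change of 3.04 ± 0.31 (SE; adjusted p = 0.00691). The TIR-NBS-LRR class entry on chromosome 6, a sum over many tandem genes of which 25 were higher and 6 lower in their own counts, had 128, 116 and 102 CPM at 48 h, against 20.3, 24.6 and 25.98 CPM at 0 h. Reads of such near-identical paralogs can be split among them, so calls of single members of this family are uncertain. One of the 2 lower entries, the resistance protein At5g63020, was at 0 CPM in all 48 h libraries, against 1.79, 4.01 and 4.86 CPM in the 0 h libraries.

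Of 68 salicylate and immune regulators, 10 were called higher (14.7%, beside 1.97% of all entries) and 0 lower, with a median change of 0.71. Besides regulators of salicylate synthesis and of the EDS1 branch, the list holds NDR1/HIN1-like, ENHANCED DISEASE RESISTANCE, LSD1 and BON1-associated proteins. Genes off the numbered chromosomes stayed single, so copies with 1 description count as separate entries in this share. All called SARD1 entries are such single genes, as are the called CALMODULIN-BINDING PROTEIN60 entries other than that on chromosome 6. Without 48 h replicate 2, 14 entries of the list were called higher and 1 lower. The lower one is isochorismate synthase 2, an enzyme of the ICS kind that makes the salicylate precursor, with 14.03, 35.9 and 17.6 CPM at 48 h, against 51.04, 30.5 and 81.2 CPM at 0 h; its libraries overlapped through 48 h replicate 2, and its adjusted p was 0.147 with all libraries and 0.0367 without that replicate (log2 change -1.27). Entries described as SARD1 and as putative CALMODULIN-BINDING PROTEIN60 made up 6 of the 10. In Arabidopsis, SARD1 and CBP60g bind the promoter of the salicylate enzyme ICS1, but the called CALMODULIN-BINDING PROTEIN60 descriptions do not name the member. The entries described as CBP60g were not called. On chromosome 7 the log2 change was 1.17 with overlapping libraries (adjusted p = 0.225). It was 2.97 for MS.gene050760 (adjusted p = 0.23) and 0.199 for MS.gene050759 (adjusted p = 0.833). Summed over the whole table, the 11 genes described as SAR DEFICIENT 1, 6 of them off the numbered chromosomes, had 221, 80.8 and 185 CPM in the 48 h libraries, against 18.5, 23.3 and 18.6 CPM in the 0 h libraries. Replicate 2 was lowest of the 48 h libraries and above every 0 h library, with a log2 change of 3.01 ± 0.38 (SE; adjusted p = 0.0110). The 12 genes described as CALMODULIN-BINDING PROTEIN60 had together 162, 102 and 167 CPM in the 48 h libraries, against 15.7, 14.5 and 11.2 CPM in the 0 h libraries, a log2 change of 3.38 ± 0.36 (SE; adjusted p = 0.00686). One SARD1 gene, MS.gene050758, had 31.2, 10.4 and 34.5 CPM at 48 h and was at 0 CPM in all 0 h libraries. Its 48 h mean was at least 326-fold higher, against a floor of 3 counts in each 0 h library. The SARD1 entry on chromosome 7 had 37.1, 22.1 and 38.0 CPM at 48 h, against 13.1, 15.7 and 13.7 CPM at 0 h and was not called (adjusted p = 0.0633).

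Of 6 SAG101 entries, which encode lipase-like partners of EDS1 in resistance signalling, 1 was called, the isoform X2 entry on chromosome 6. It had 325, 124 and 255 CPM at 48 h, against 25.99, 27.3 and 11.2 CPM at 0 h, with a log2 change of 3.45 ± 0.48 (SE; adjusted p = 0.0122). The other 5 were not called, and 3 of them, all on chromosome 3, had negative fitted changes of -3.08, -0.45 and -0.36. An entry described as enhanced disease susceptibility protein had 345, 315 and 497 CPM at 48 h, against 107, 94.9 and 39.9 CPM at 0 h, with a log2 change of 2.26 ± 0.39 (SE; adjusted p = 0.0227). The entry described as EDS1 itself had 129, 68.0 and 160.5 CPM at 48 h, against 252, 74.1 and 55.6 CPM at 0 h; these libraries overlapped and the entry was not called (log2 change -0.10). NPR3, a salicylate receptor, had 188, 212 and 122 CPM at 48 h, against 76.4, 81.8 and 69.0 CPM at 0 h (log2 change 1.20). NHL10, a membrane protein induced in Arabidopsis immunity, was called at 2.15. Pathogenesis-related proteins, secreted end products of the response, had 1 of 72 called higher, a PR-4 chitinase, and 1 called lower, a thaumatin family protein. Their median change was 0.18, and by library it was 0.24, -0.39 and 0.30 in 48 h replicates 1, 2 and 3. Summed FPKM of the list was 7390, 2629 and 11847 at 48 h, against 4834, 5128 and 4349 at 0 h, so replicate 2 lay below the 0 h libraries and the other 48 h libraries above them. Without replicate 2, 6 were called higher and 3 lower, and DESeq2 called 7 higher and 2 lower with all libraries.

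Of 55 WRKY factors, 7 were called higher (12.7%, beside 1.97% of all entries) and 0 lower (beside 1.68%), and without 48 h replicate 2 these were 12 and 0. The median change was 0.66, and by library it was 0.82, 0.15 and 0.75 in 48 h replicates 1, 2 and 3. WRKY53, an activator of defence and leaf senescence genes in Arabidopsis, had 75.7, 59.8 and 62.01 CPM at 48 h, against 10.5, 5.98 and 5.39 CPM at 0 h. The 48 h libraries lay close together, and the log2 change was 3.17 ± 0.36 (SE; adjusted p = 0.00846). Nearly all of its 48 h counts came from MS.gene95287 on the minus strand of copy 8.1 at 74027694 to 74030927 and from MS.gene79758 on the minus strand of copy 8.4 at 68269444 to 68272039, with 48.9% and 44.4%. WRKY24 had 131, 62.8 and 143 CPM at 48 h, against 24.5, 18.1 and 9.15 CPM at 0 h, with replicate 2 again the lowest at 48 h (log2 change 2.70). WRKY33, needed for camalexin synthesis in Arabidopsis, had 11.6, 0.888 and 11.2 CPM at 48 h, against 6.18, 1.11 and 2.58 CPM at 0 h; the groups overlapped through 48 h replicate 2, and it was not called (adjusted p = 0.508). Ethylene response factors had 4 of 54 called higher (7.41%) and 1 lower (1.85%), beside 1.97% and 1.68% of all entries. The median change of the list was -0.22, and without 48 h replicate 2 the calls were 8 and 4. ERF104, a substrate of an immune MAP kinase in Arabidopsis, had 66.3, 68.4 and 66.4 CPM at 48 h, against 7.73, 14.1 and 7.02 CPM at 0 h. Its 48 h libraries were nearly equal, and the log2 change was 2.80 ± 0.29 (SE; adjusted p = 0.00691). ERF098 was lower in level, with 7.89, 6.83 and 7.21 CPM at 48 h, against 0.349, 0.474 and 0.326 CPM at 0 h (log2 change 4.24).

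**Figure D2:**
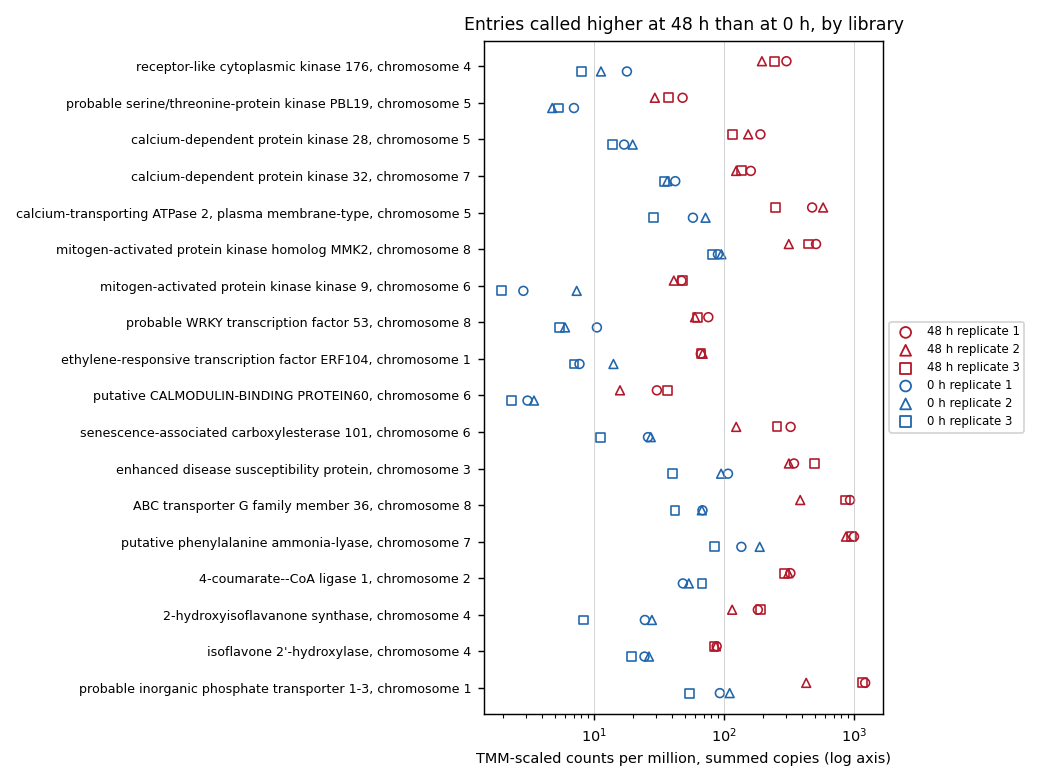
Level of 18 called entries in each library, in TMM-scaled CPM on a log axis; red points are the 48 h libraries and blue points the 0 h libraries, with circles, triangles and squares for replicates 1, 2 and 3. The red and blue points do not overlap in any entry. In many entries, though not in all, the red triangle of replicate 2 lies left of the other red points. Examples are ABC transporter G family member 36 (385 CPM, against 930 and 853 CPM in replicates 1 and 3), phosphate transporter 1-3, RLCK176, MMK2 and SAG101.

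Some entry enzymes of the phenylpropanoid route and some of isoflavonoid synthesis rose, while an enzyme that hydroxylates flavonoids fell. An entry of phenylalanine ammonia-lyase (PAL, the first enzyme of the route) on chromosome 7 had 998, 867 and 949 CPM at 48 h, against 136, 188 and 83.9 CPM at 0 h. Its 9 counted genes were all higher at 48 h, and the log2 change was 2.79 ± 0.32 (SE; adjusted p = 0.00846). Another PAL entry on chromosome 7 had 1039.5, 791 and 972 CPM at 48 h, against 479.5, 108 and 30.9 CPM at 0 h and was not called, and 0 h replicate 1 stood far above the other 0 h libraries (adjusted p = 0.19). The PAL entry on chromosome 1 had 826, 1262 and 601 CPM at 48 h, against 1004, 989 and 737 CPM at 0 h, with no separation of the times (log2 change -0.02). 4-coumarate:CoA ligase 1, which activates the acids PAL leads to, was called on chromosomes 2 and 4. On chromosome 2 it had 324, 312 and 292 CPM at 48 h, against 48.2, 53.6 and 67.7 CPM at 0 h (log2 change 2.45). On chromosome 4 it had 690.0, 232 and 665 CPM at 48 h, against 57.7, 68.6 and 82.7 CPM at 0 h (log2 change 2.92). Among 75 lignin and phenylpropanoid enzymes, 6 were called higher and 1 lower (7 and 5 without 48 h replicate 2) around a median of 0.03. Those called higher also included PAL class 3 on chromosome 5 (log2 change 2.42). Caffeoylshikimate esterase on chromosome 8 had 125, 63.8 and 118 CPM at 48 h, against 23.0, 29.2 and 31.4 CPM at 0 h. A probable caffeoyl-CoA O-methyltransferase on chromosome 6 had 367, 111 and 340 CPM at 48 h, against 51.3, 48.1 and 41.6 CPM at 0 h. Both were called higher. The entry called lower was caffeoyl-CoA O-methyltransferase 2 of lignin monomer synthesis. It had 106, 123.2 and 81.6 CPM at 48 h, against 334, 402 and 181 CPM at 0 h.

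On the isoflavonoid side, 2-hydroxyisoflavanone synthase, the cytochrome P450 that commits flavanones to isoflavones, had 182, 115 and 189.9 CPM at 48 h, against 24.6, 27.9 and 8.23 CPM at 0 h, with a log2 change of 3.005 ± 0.48 (SE; adjusted p = 0.0181). Isoflavone 2'-hydroxylase, on the way to the phytoalexin medicarpin, had 87.7, 86.6 and 83.6 CPM at 48 h, against 24.4, 26.5 and 19.5 CPM at 0 h, with a log2 change of 1.87 ± 0.19 (SE; adjusted p = 0.00691). Of the 8 genes this entry sums, 4 were higher and 4 lower in mean count. Isoflavone 4'-O-methyltransferase, on the same way, had 194, 82.4 and 194 CPM at 48 h, against 22.9, 55.8 and 19.6 CPM at 0 h (log2 change 2.26). All 3 of these enzymes had separate ranges. Flavonoid 3'-monooxygenase, which hydroxylates the B ring of flavonoids, had 33.9, 47.5 and 28.2 CPM at 48 h, against 362, 354 and 226 CPM at 0 h, with a log2 change of -3.10 ± 0.29 (SE; adjusted p = 0.00691). This entry sums a large family of which 30 members were lower and 4 higher in mean count. Over the whole list of 87 flavonoid and isoflavonoid enzymes, 5 were called higher and 1 lower (12 and 7 without 48 h replicate 2), with a median of 0.31, which by library was 0.39, -0.26 and 0.30 in 48 h replicates 1, 2 and 3.

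Some cytosolic ribosomal proteins fell at 48 h, and the lists' medians were lowest in replicates 1 and 3. Of 141 entries of the large (60S) subunit, 16 were called lower (11.3%, beside 1.68% of all entries) and 0 higher, and the median change was -1.17. The changes of the 3 libraries had medians of -1.49, -0.48 and -1.59 in 48 h replicates 1, 2 and 3. Summed FPKM of the list was 6745, 13018 and 6706 in the 48 h libraries, against 21862, 18832 and 19491 in the 0 h libraries, so replicate 2 lay between the other 48 h libraries and the 0 h libraries. Without replicate 2, 105 entries were called lower and 1 higher. The small (40S) subunit gave 8 of 83 called lower and 0 higher with a median of -1.11, and 55 called lower without replicate 2. The 60S protein L44, for example, had 41.5, 42.01 and 41.0 CPM at 48 h, against 87.4, 78.4 and 88.2 CPM at 0 h. The ubiquitin fusion of the 40S protein S27a had 17.5, 29.1 and 14.02 CPM at 48 h, against 79.5, 93.7 and 109.8 CPM at 0 h. Ribosome biogenesis factors had 6 of 76 called lower, among them the pseudouridine synthase subunit of the H/ACA complex with 4.74, 10.7 and 6.55 CPM at 48 h, against 36.97, 30.5 and 35.3 CPM at 0 h. Plastid ribosomal proteins had 1 of 40 called lower, with a median of -0.07. No ribosomal list kept a call in the fit of the 6 libraries alone, in which edgeR called 0 of their entries in either direction. In the fit of 9 libraries, 104 entries of the large and 54 of the small subunit had an unadjusted p of 0.05 or less, and DESeq2 called 79 and 42 lower and 1 of each higher.

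**Figure D3:**
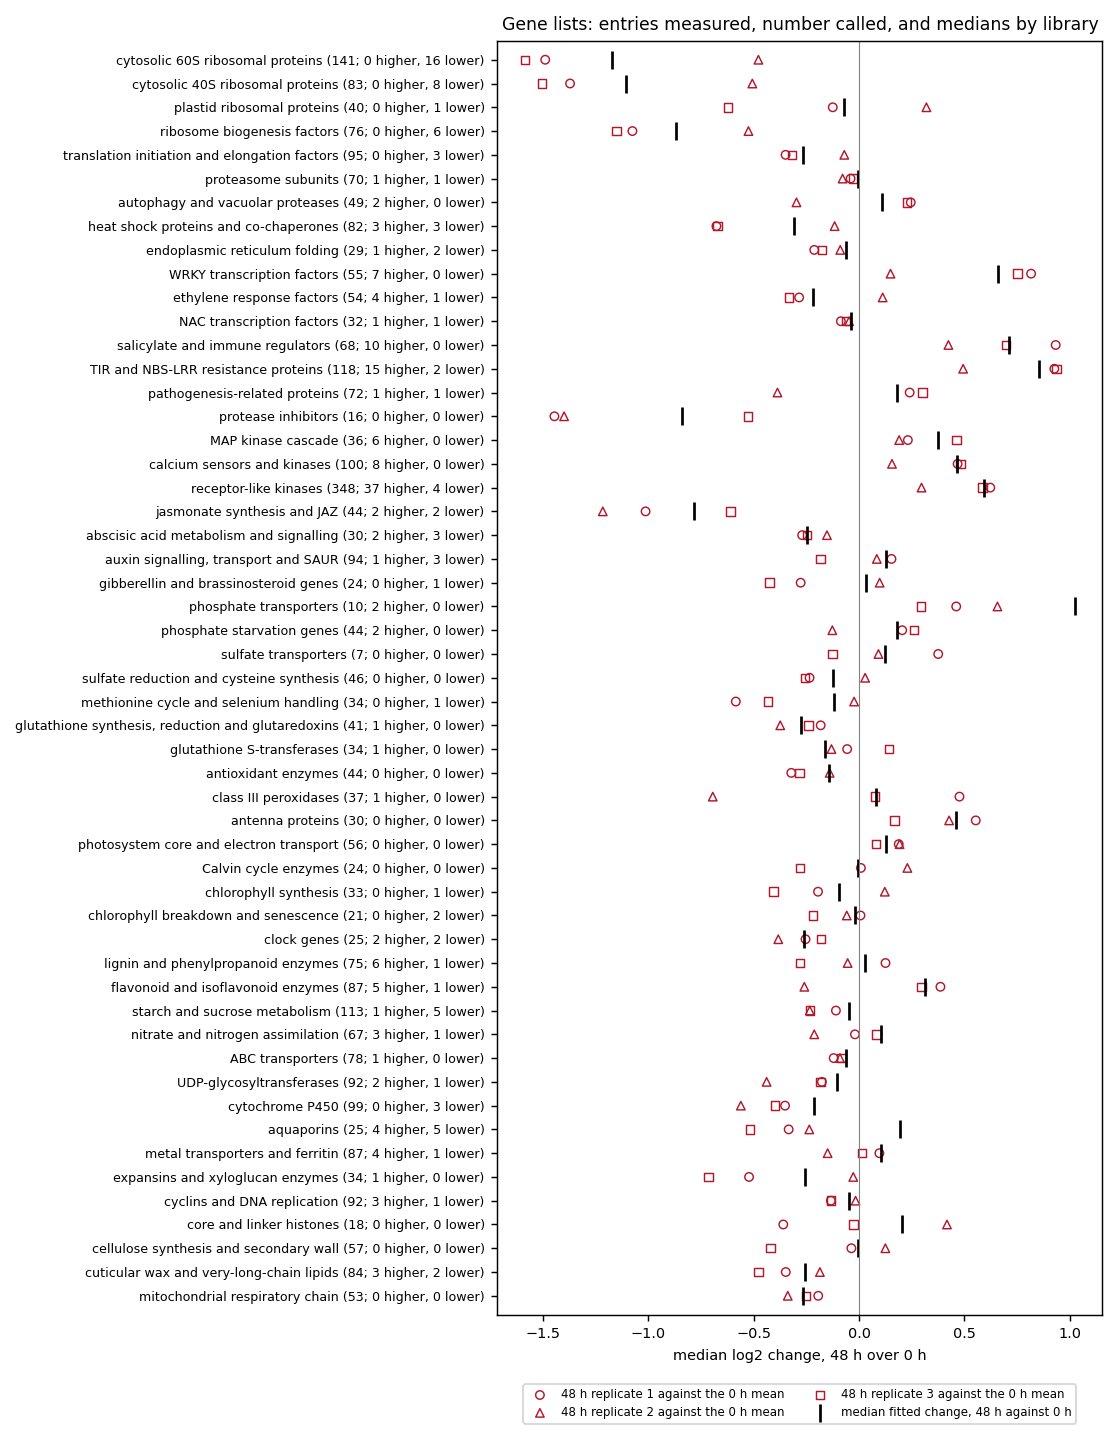
Gene lists with 7 or more entries (rows, with the number of entries measured and called); horizontal axis, median log2 change of 48 h over 0 h. Bars mark the median fitted change, and circles, triangles and squares the median in 48 h replicates 1, 2 and 3 against the 0 h mean; for ribosomal proteins replicate 2 lies nearer 0 (-0.48 for the 60S subunit, against -1.49 and -1.59).

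Of the starch enzymes, edgeR called 5 lower at 48 h, 4 of them enzymes that open or degrade starch or use its products. Alpha-glucan water dikinase, which phosphorylates starch and lets its breakdown begin, had 14.6, 14.2 and 22.5 CPM at 48 h, against 158, 375 and 282 CPM at 0 h. The 48 h libraries lay far below the 0 h libraries, and the log2 change was -3.99 ± 0.42 (SE; adjusted p = 0.00691). Most of its 48 h counts, 85.8%, came from MS.gene97931 on the plus strand of copy 8.4 at 33781974 to 33798253. DPE2, the glucanotransferase that uses the maltose exported from chloroplasts, had 34.1, 38.4 and 36.5 CPM at 48 h, against 183, 378 and 245 CPM at 0 h, with a log2 change of -2.89 ± 0.34 (SE; adjusted p = 0.00962). The cytosolic alpha-glucan phosphorylase H had 17.1, 23.5 and 36.7 CPM at 48 h, against 117, 371 and 469 CPM at 0 h (log2 change -3.63), and its 0 h libraries differed among themselves. Beta-amylase 3, which releases maltose in the chloroplast, had 50.1, 44.8 and 33.4 CPM at 48 h, against 242, 105 and 111 CPM at 0 h. Granule-bound starch synthase 1, which makes amylose, had 171, 155 and 193 CPM at 48 h, against 515, 1539 and 771 CPM at 0 h; without 48 h replicate 2 its adjusted p was 0.0544. A sucrose synthase entry was the 1 call in the other direction, with 246, 219 and 226 CPM at 48 h, against 125, 126 and 130.1 CPM at 0 h. These were 5 called lower and 1 called higher of 113 starch and sucrose entries (9 and 7 without 48 h replicate 2). The median change of the list was -0.05, equal to that of all entries, and DESeq2 called 19 lower and 10 higher. Of the 6 edgeR calls, the dikinase and DPE2 were also called in the edgeR fit of the 6 libraries alone, each at an adjusted p of 0.0376.

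Several genes of the circadian clock differed between the times as well. LHY, a morning-phased transcription factor of the clock, had 2254, 2913 and 2181.9 CPM at 48 h, against 617, 631 and 595 CPM at 0 h. The 3 libraries of each time were close together, and the log2 change was 1.996 ± 0.29 (SE; adjusted p = 0.0137). At the 3 times its mean was 614 CPM at 0 h, 1.85 CPM at 12 h and 2450 CPM at 48 h. REVEILLE 8, a relative of LHY that activates evening genes in Arabidopsis, had 243, 302 and 204 CPM at 48 h, against 120.2, 91.9 and 129 CPM at 0 h, and its mean at 12 h was 2.41 CPM. The pseudo-response regulator APRR7, a daytime repressor of LHY, had 48.8, 49.5 and 60.02 CPM at 48 h, against 136, 102 and 174 CPM at 0 h (log2 change -1.38). APRR3 had 80.1, 132 and 78.1 CPM at 48 h, against 240.0, 175 and 444 CPM at 0 h and missed the threshold (adjusted p = 0.0563). GIGANTEA, which peaks late in the day in Arabidopsis, had 116, 114 and 124 CPM at 48 h, against 230.1, 129 and 147 CPM at 0 h. Its ranges were separate, but it was not called. The evening regulator APRR1 was low at both times on chromosomes 3 and 8, between 0.613 and 4.06 CPM in the 6 libraries, and had means of 14.4 and 55.1 CPM in the 12 h libraries. Of 25 clock entries, 2 were called higher and 2 lower, the second lower one being adagio 3, a blue-light receptor at 0 to 0.0296 CPM in the 48 h libraries, against 1.11, 0.316 and 0.770 CPM in the 0 h libraries. The hour of sampling is not in the labels, and the part of clock phase in the other differences was not tested.

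**Figure D4:**
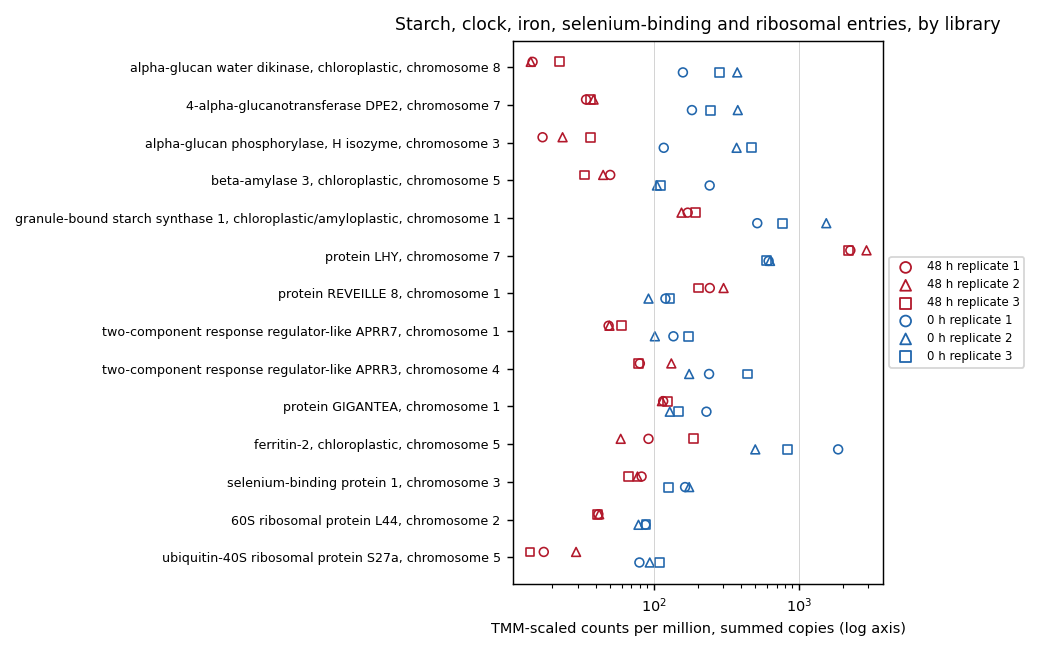
Level of 14 entries in each library, in TMM-scaled CPM on a log axis; red points are the 48 h libraries and blue points the 0 h libraries, with circles, triangles and squares for replicates 1, 2 and 3. The red points of the starch enzymes lie left of all blue points, and those of LHY and REVEILLE 8 right of them. The red points of GIGANTEA also lie left of its blue points, with a narrow gap.

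Phosphate transporters 1-3 and 1-9 were higher at 48 h, and no sulfate transporter was called. Phosphate transporter 1-3, a high-affinity importer, had 1217, 428 and 1153 CPM at 48 h, against 92.8, 110.4 and 54.0 CPM at 0 h. Replicate 2 had 428 CPM and lay below the other 48 h libraries and above all 0 h libraries, with a log2 change of 3.44 ± 0.56 (SE; adjusted p = 0.0189). All 4 copies were higher, led by MS.gene004783 on the plus strand of copy 1.4 at 61207527 to 61209143. Phosphate transporter 1-9 had 64.2, 22.5 and 90.6 CPM at 48 h, against 15.8, 12.6 and 9.03 CPM at 0 h, with a log2 change of 2.24 ± 0.50 (SE; adjusted p = 0.0495). Those were the 2 calls among 10 phosphate transporters, which is 20%, beside 1.97% of all entries called higher. Phosphate transporter 1-4 on chromosome 3 had 96.5, 36.4 and 85.3 CPM at 48 h, against 46.6, 31.0 and 26.98 CPM at 0 h and was not called. Among 44 genes of the phosphate starvation response, 2 were called higher (4.55%, beside 1.97% of all entries) and 0 lower (beside 1.68%). Libraries did not overlap in 5 higher and 5 lower entries, beside 11.6% and 13.1% of all entries, and DESeq2 called 3 higher and 4 lower. UDP-sulfoquinovose synthase had 33.6, 60.4 and 31.0 CPM at 48 h, against 118, 71.2 and 64.0 CPM at 0 h, and was not called (edgeR adjusted p = 0.125). A glycerol-3-phosphate transporter, of a family induced when phosphate is short, had 411, 298 and 401 CPM at 48 h, against 92.9, 53.1 and 81.0 CPM at 0 h, with a log2 change of 2.29 ± 0.27 (SE; adjusted p = 0.00962). Purple acid phosphatase 29, annotated as inactive, had 126, 32.9 and 139 CPM at 48 h, against 13.9, 13.2 and 20.9 CPM at 0 h. The phosphate sensor SPX1 had 50.6, 25.8 and 54.1 CPM at 48 h, against 11.8, 8.46 and 27.4 CPM at 0 h; the groups overlapped and it was not called, nor was PHO1 homolog 1, a phosphate exporter, with 15.7, 7.99 and 16.2 CPM at 48 h, against 2.31, 0.105 and 1.75 CPM at 0 h.

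Of 7 sulfate transporter entries that could be tested, edgeR called 0 in either direction, with 2 at an unadjusted p of 0.05, and DESeq2 called 1 lower. Sulfate transporter 4.1, which exports sulfate from the vacuole in Arabidopsis, had separate ranges but was not called, with 97.1, 96.6 and 96.6 CPM at 48 h, against 54.3, 72.0 and 80.5 CPM at 0 h (adjusted p = 0.224). Sulfate transporter 3.4 had 0, 0.207 and 0 CPM at 48 h, against 4.56, 11.04 and 1.54 CPM at 0 h and was not called (adjusted p = 0.064). The fitted changes of the other 5 lay between -0.61 (transporter 3.3) and 0.69 (transporter 2.1), with 0.17 for transporter 3.1, 0.12 for transporter 1.3 and -0.29 for low affinity transporter 3. Of 46 entries for sulfate reduction and cysteine synthesis, edgeR also called 0, with 6 at an unadjusted p of 0.05 and a median of -0.12, and DESeq2 called 2 higher and 1 lower. Adenylylsulfate reductase 3, the control point of sulfate reduction, had 1691, 1808 and 1015 CPM at 48 h, against 1643, 836 and 1018 CPM at 0 h. Its libraries overlapped between the times, and the log2 change was 0.37 ± 0.51 (SE; adjusted p = 0.769). Selenium-binding protein 1, which in Arabidopsis binds selenium, was the only called member among 34 entries of the methionine cycle and selenium handling. It had 82.3, 77.2 and 66.8 CPM at 48 h, against 164, 175 and 126 CPM at 0 h, with a log2 change of -1.04 ± 0.20 (SE; adjusted p = 0.0328). Selenocysteine methyltransferase, the enzyme that makes methylselenocysteine in selenium accumulators, was near the limit of detection, with 1.90, 0.296 and 0.785 CPM at 48 h, against 0.611, 0.685 and 0.326 CPM at 0 h. A homocysteine S-methyltransferase-like entry of the same family had 10.3, 1.48 and 5.10 CPM at 48 h, against 0, 0 and 0 CPM at 0 h and lay at the threshold (adjusted p = 0.0502).

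Thiol and redox genes had few calls. Of 41 entries for glutathione synthesis, reduction and glutaredoxins, 1 was called higher (2.44%, near the 1.97% of all entries) and 0 lower (beside 1.68%). It was gamma-glutamyltranspeptidase, which starts glutathione breakdown outside the cytosol, with 198, 190.2 and 234 CPM at 48 h, against 61.5, 73.4 and 59.4 CPM at 0 h and a log2 change of 1.68 ± 0.18 (SE; adjusted p = 0.00691). Of 34 glutathione S-transferases, the TCHQD type was the 1 call, with 46.6, 36.7 and 34.9 CPM at 48 h, against 17.9, 21.9 and 14.1 CPM at 0 h. None of 44 antioxidant enzymes (superoxide dismutases, catalases, ascorbate peroxidases and related enzymes) was called by edgeR, with 8 at an unadjusted p of 0.05 and a median of -0.14, and DESeq2 called 1 higher and 4 lower. Without 48 h replicate 2, 2 of the antioxidant enzymes were called lower. Of the photosynthesis lists, 3 also had 0 calls by edgeR: 30 antenna proteins had a median of 0.46, 56 photosystem and electron transport entries 0.13 and 24 Calvin cycle enzymes a median within 0.01 of 0. At an unadjusted p of 0.05 they held 7, 7 and 3 entries, and DESeq2 called 4 antenna proteins, 2 photosystem entries and 1 Calvin cycle enzyme higher and 1, 3 and 1 lower. Antenna proteins summed to 103324, 105802 and 85710 FPKM in the 48 h libraries, against 43130, 72528 and 84520 FPKM in the 0 h libraries. Chlorophyll synthesis had 1 of 33 entries called lower, and chlorophyll breakdown had 2 of 21 entries called lower. The chlorophyll b reductase NYC1 had 74.2, 76.2 and 97.7 CPM at 48 h, against 299.9, 253 and 182 CPM at 0 h, and chlorophyllase 2 had 7.84, 12.4 and 11.01 CPM at 48 h, against 35.3, 23.7 and 29.9 CPM at 0 h.

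Hormone lists held calls in both directions. Within abscisic acid metabolism and signalling, 2 of 30 were called higher (6.67%) and 3 lower (10%), beside 1.97% and 1.68% of all entries. The receptor PYL4 had 13.9, 12.3 and 15.5 CPM at 48 h, against 1.18, 1.74 and 0.592 CPM at 0 h (log2 change 3.57). The protein phosphatase 2C 56, a member of the group that such receptors inhibit, had 2.23, 6.54 and 2.30 CPM at 48 h, against 65.6, 41.2 and 42.8 CPM at 0 h, with a log2 change of -3.76 ± 0.49 (SE; adjusted p = 0.0111). PYL4 and protein phosphatase 2C 56 thus changed in opposite directions, which does not extend to other receptors and phosphatases of the list. Jasmonate genes had 2 of 44 called higher (4.55%) and 2 lower (4.55%), with a median of -0.78. JAR1, which makes the active jasmonate conjugate, had 27.4, 20.4 and 25.1 CPM at 48 h, against 0.633, 0 and 0 CPM at 0 h, while a 13S-lipoxygenase of the first step had 62.8, 39.0 and 78.9 CPM at 48 h, against 171, 209 and 329.9 CPM at 0 h. The median change of the jasmonate list was -1.01, -1.22 and -0.61 in 48 h replicates 1, 2 and 3. Gibberellin 2-beta-dioxygenase 8, which inactivates gibberellin, had 0.530, 0.414 and 0.736 CPM at 48 h, against 67.5, 10.3 and 27.4 CPM at 0 h, with a log2 change of -5.96 ± 1.03 (SE; adjusted p = 0.0239).

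Some transport and storage proteins for water, iron and nitrogen also changed. Aquaporins, the channels for water and small solutes, had 4 of 25 called higher (16%, beside 1.97% of all entries) and 5 lower (20%, beside 1.68%). With the 6 libraries alone edgeR called 0 of them in either direction, while DESeq2 with all libraries called 4 higher and 6 lower. Of the 4 higher ones, 2 were near the limit of detection: the PIP2-1 entry on chromosome 5 with 0.725, 0.740 and 1.13 CPM at 48 h, against 0, 0 and 0 CPM at 0 h, and NIP1-2 with 0.223, 0.237 and 1.45 CPM at 48 h, against 0, 0 and 0 CPM at 0 h. The tonoplast aquaporin TIP2-1 had 9.56, 13.96 and 1.96 CPM at 48 h, against 144, 84.4 and 116 CPM at 0 h, and the NIP-type entry had 5.05, 11.5 and 4.36 CPM at 48 h, against 53.7, 44.03 and 81.9 CPM at 0 h. The more abundant plasma membrane aquaporin PIP2-2 had 151, 264 and 124 CPM at 48 h, against 1062, 975 and 609 CPM at 0 h (log2 change -2.30). Among the higher ones, the PIP2-1 entry on chromosome 7 had 48.7, 40.7 and 24.3 CPM at 48 h, against 10.9, 14.4 and 6.16 CPM at 0 h. Ferritin-2, the plastid iron store, had 91.8, 59.1 and 187 CPM at 48 h, against 1858, 499 and 837 CPM at 0 h; its 0 h libraries differed among themselves, and the log2 change was -3.24 ± 0.58 (SE; adjusted p = 0.0253). Ammonium transporter 1 member 1 had 407, 353 and 446 CPM at 48 h, against 109.8, 101.1 and 65.5 CPM at 0 h, with a log2 change of 2.13 ± 0.38 (SE; adjusted p = 0.0253). Cytosolic glutamine synthetase, which assimilates ammonium, had 84.9, 81.7 and 75.05 CPM at 48 h, against 147, 237 and 139 CPM at 0 h (log2 change -1.11).

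The largest changes among entries with a mean of at least 10 CPM at the higher time included several seen in part of the libraries only. Cell number regulator 9, a small membrane protein of a family named for fruit and organ size, had 164, 260.0 and 129.6 CPM at 48 h, against 3.23, 1.77 and 3.32 CPM at 0 h. Replicate 2 was here the highest of the 48 h libraries, and the log2 change was 6.06 ± 0.39 (SE; adjusted p = 0.00255). Phosphatidylinositol:ceramide inositolphosphotransferase 2, which makes a membrane sphingolipid, had 179.9, 118 and 117 CPM at 48 h, against 9.03, 6.75 and 7.73 CPM at 0 h, with a log2 change of 4.14 ± 0.38 (SE; adjusted p = 0.00691). The pleiotropic drug resistance protein 1, an ABC transporter, had 6.80, 12.4 and 11.1 CPM at 48 h, against 0.175, 0 and 0 CPM at 0 h. A TMV resistance protein N entry had 14.6, 1.01 and 15.3 CPM in the 48 h libraries and 0 CPM in all 0 h libraries. Its 48 h mean was at least 132-fold above the floor of the 0 h libraries, and replicate 2 was far below that mean. A cytochrome c biogenesis ccsA entry had 27.1, 0.385 and 28.8 CPM in the 48 h libraries and 0 CPM in all 0 h libraries. Its 48 h mean was at least 241-fold above the floor of the 0 h libraries, with 48 h replicate 2 close to the 0 h level. The transcription factor bHLH041 had 37.03, 7.48 and 33.5 CPM at 48 h, against 1.27, 1.84 and 1.07 CPM at 0 h, and the resistance-like protein DSC1 189, 107 and 149 CPM at 48 h, against 14.03, 3.69 and 1.07 CPM at 0 h. On the lower side, alpha-xylosidase 1, which trims xyloglucan in the cell wall, had 0.920, 2.90 and 1.03 CPM at 48 h, against 29.4, 80.3 and 51.4 CPM at 0 h, with a log2 change of -5.05 ± 0.61 (SE; adjusted p = 0.00962). The co-chaperone dnaJ B8 had 0.335, 0.118 and 0.245 CPM at 48 h, against 20.1, 8.59 and 10.8 CPM at 0 h (log2 change -5.80). Protein phosphatase 2C 51 had 0.725, 0.503 and 0.123 CPM at 48 h, against 6.35, 18.8 and 17.8 CPM at 0 h, and fructokinase-like 2, a plastid protein of the transcription machinery in Arabidopsis, had 0.279, 1.60 and 0.343 CPM at 48 h, against 19.1, 22.7 and 6.28 CPM at 0 h. A homeobox-leucine zipper entry had 0.335, 0.385 and 1.35 CPM at 48 h, against 18.7, 69.3 and 38.5 CPM at 0 h, and BTB/POZ and TAZ domain protein 1 had 2.76, 0.562 and 2.35 CPM at 48 h, against 59.7, 39.5 and 67.7 CPM at 0 h. TOE3, a flowering repressor in Arabidopsis, had 0, 0.0888 and 0.147 CPM at 48 h, against 26.1, 1.502 and 17.7 CPM at 0 h, and pyrophosphatase 2 had 0, 0 and 0.245 CPM at 48 h, against 21.6, 11.01 and 3.52 CPM at 0 h. A RICESLEEPER 2-like zinc finger entry had 0, 0.0888 and 0 CPM at 48 h, against 13.4, 80.6 and 6.87 CPM at 0 h, its 0 h libraries differing widely among themselves.

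**Figure D5:**
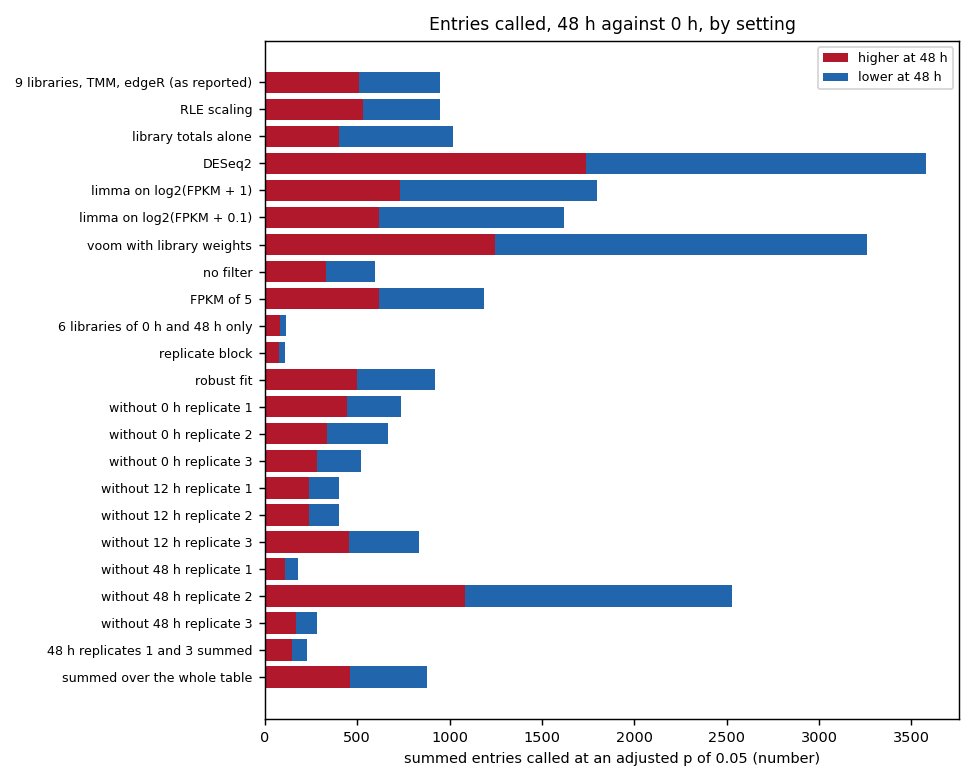
Number of summed entries called at 48 h against 0 h (bar length, red higher and blue lower) under each setting of the fit, from the reported one at the top. The count was 948 in the reported fit, 2527 without 48 h replicate 2, 182 without 48 h replicate 1 and 117 with the 6 libraries alone.

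The plot of calls by setting shows that the number of called entries differed with the libraries in the fit and with the method. Of the 948 called entries, 154 were called in each of the 9 fits that left out 1 library, and 83 of these also in the fit of the 6 libraries alone. RLCK176, calcium-dependent protein kinase 28, the called MMK2 entry, WRKY53, ERF104, the called PAL entry, the glucan dikinase, DPE2 and cell number regulator 9 were among those called in all 9 fits and with the 6 libraries.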

How the data were processed

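Leaves were profiled by RNA sequencing, with poly(A) selection per the labels' protocol, whose wording is unclear, and the 3 libraries at 48 h were compared with the 3 at 0 h. The authors deposited 1 table with a count and an FPKM value per gene and library. Per the submitters' processing notes HISAT and StringTie were used; no versions are given, and the sources used here name neither the genome build nor the annotation. Reads of near-identical chromosome copies can be assigned to one another, so counts were summed over genes with 1 description on 1 numbered chromosome, which gave 78397 entries. Genes off the numbered chromosomes (5738) or with an uninformative description (48064) stayed single. Whether counting used strand is not stated, so antisense overlaps are not resolved.

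Entries that reached an FPKM of 1 in 3 or more of the 9 libraries were tested with edgeR 4.0.16 (R 4.3.3; glmQLFit and glmQLFTest, TMM, 1 mean per time, Benjamini-Hochberg). The 12 h libraries entered this filter, the scaling and the estimate of the spread, not the contrast. Tested entries held 99.3% to 99.5% of each library's counts, and 3 counts correspond to 0.0655 to 0.0889 CPM in the 6 libraries; such floors cover counting error only. limma 3.58.1, DESeq2 1.42.0, other scalings, filters and left-out libraries were alternatives; calls per list without 48 h replicate 2 and with the 6 libraries alone were chosen after seeing the data. The test was checked on simulated counts.

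Named entries were, by rule, the 10 called higher and 10 called lower of largest change with a mean of at least 10 CPM at the higher time, separate library ranges and an informative description (1 entry per description), up to 2 called per list and direction, and the entries of 13 fixed name patterns. Members and lists were chosen with earlier results of these data known. Of 59 lists, 9 had patterns corrected and 1 (TIR and NBS-LRR proteins) was added after values were seen. A further 46 named entries (other called members of the starch, calcium, MAP kinase, immune, phenylpropanoid, flavonoid and aquaporin lists, APRR3 and isochorismate synthase 2, which were not called, and called entries outside the lists such as SNAP33) were added after their values were seen. No list was tested as a set.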

Additional observations from a re-analysis of the deposited data

How the results depend on the processing

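The number of called entries depended on the fit: 3581 with DESeq2, 3261 with voom library weights, 1798 and 1617 with limma on log2(FPKM + 1) and log2(FPKM + 0.1), 594 without the filter on low values, 230 with 48 h replicates 1 and 3 summed as 1 library and 117 with the 6 libraries alone, against 948. Single genes gave 5579, 3123, 2037, 1507, 158, 12 and 0 in the same order, against 582; at an unadjusted p of 0.05, 6305 genes passed in the 6-library fit. Leaving out 1 library gave 182 (without 48 h replicate 1) to 2527 (without 48 h replicate 2) entries. It gave 282 without 48 h replicate 3, 400, 399 and 834 without 12 h replicates 1, 2 and 3, and 518 without 0 h replicate 3. For genes the same range was 4 (without 12 h replicate 1) to 2733 (without 48 h replicate 2). The voom library weights of 12 h replicates 1, 2 and 3 were 2.90, 2.36 and 0.578 for entries. These weights belong to the voom alternative and do not enter the edgeR fit behind the 948 calls. Use of chromosome copies was not compared between the 12 h libraries. The cause of the differences in calls was not tested, except that the 6-library fit has fewer samples. Same-numbered 48 h and 0 h libraries had correlations of deviations of -0.02, -0.02 and -0.05, so the replicate numbers do not pair the libraries; a fit with the replicate number as a block called 107 entries and 0 genes by edgeR, with 6726 genes at an unadjusted p of 0.05.

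Of 214 named entries 168 were called. None of the 168 changed sign under any alternative, 168 stayed called with DESeq2, 163 without 48 h replicate 2, 87 without replicate 3, 58 without replicate 1 and 51 with the 6 libraries. Sign changes were seen only in entries near 0 that were not called: sulfate transporter 1.3 (-0.0224 and -0.0285 with limma, -0.0238 with replicates 1 and 3 summed, -0.14 to 0.39 leaving out a library), sulfate transporter 3.1 (-0.18 to 0.48 leaving out a library), EDS1 (0.30 with voom weights, 0.14 with the replicate block, -0.46 to 0.91 leaving out a library) and the PAL entry on chromosome 1 (0.00125 with RLE scaling, 0.00124 with DESeq2, 0.000661 with 6 libraries, 0.12 with replicates summed, -0.35 to 0.20 leaving out a library). Of 708 list medians under alternatives, 600 moved by less than 1 SD of the 3 library medians.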

Other observations

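Several called entries not described above act in membrane traffic, at the cell surface or in defence. SNAP33, a membrane fusion protein of secretion, had 233, 162 and 182 CPM at 48 h, against 46.1, 24.6 and 38.1 CPM at 0 h, with a log2 change of 2.41 ± 0.29 (SE; adjusted p = 0.00962) by edgeR's quasi-likelihood test. Its partner syntaxin-121, which in Arabidopsis works in resistance to fungal entry, had 126, 84.5 and 117 CPM at 48 h, against 29.4, 24.95 and 19.4 CPM at 0 h. The 48 h libraries of both lay above all 0 h libraries. The Rab GTPase RHN1 had 94.0, 89.3 and 79.7 CPM at 48 h, against 23.2, 32.8 and 28.9 CPM at 0 h. ABCG36, a plasma membrane exporter, had 930.5, 385 and 853 CPM at 48 h, against 68.2, 67.5 and 41.97 CPM at 0 h, with a log2 change of 3.61 ± 0.40 (SE; adjusted p = 0.00774). The cytoplasmic kinase PBL19, which relays chitin signals in Arabidopsis, had 47.96, 29.3 and 37.1 CPM at 48 h, against 7.01, 4.77 and 5.30 CPM at 0 h. HSPRO1, named for nematode resistance in beet, had 225, 293 and 201 CPM at 48 h, against 23.5, 21.6 and 25.9 CPM at 0 h, with replicate 2 the highest of the 48 h libraries. Metacaspase-1, a protease of the cell death machinery, had 215, 189 and 225 CPM at 48 h, against 71.7, 52.3 and 73.5 CPM at 0 h. A thionin-like peptide had 46.6, 35.1 and 43.2 CPM at 48 h, against 9.32, 11.8 and 9.86 CPM at 0 h, and ERD15, a stress-responsive regulator, had 278, 176.4 and 162 CPM at 48 h, against 29.6, 27.7 and 33.5 CPM at 0 h.

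Other called entries belong to thiamine synthesis, metal handling, lipids and protein folding. Thiamine thiazole synthase, an abundant plastid enzyme of vitamin B1 synthesis, had 599, 519 and 656 CPM at 48 h, against 2025, 3201 and 2742 CPM at 0 h, with a log2 change of -2.17 ± 0.24 (SE; adjusted p = 0.00774) by edgeR's quasi-likelihood test. Its 48 h libraries were close to each other and far below the 0 h libraries. A plant cadmium resistance 2-like protein had 66.0, 50.5 and 56.7 CPM at 48 h, against 4.93, 8.85 and 5.95 CPM at 0 h, and the heavy metal-associated isoprenylated protein 39 on chromosome 1 had 105, 92.0 and 76.3 CPM at 48 h, against 16.1, 6.17 and 11.8 CPM at 0 h. Both lay above all 0 h libraries in each 48 h library. The antiporter CHX28 had 12.2, 9.67 and 11.99 CPM at 48 h, against 0.960, 0.632 and 1.36 CPM at 0 h. An ABC protein described as a maltose-transporting ATPase had 965, 478 and 979 CPM at 48 h, against 113, 131 and 82.0 CPM at 0 h, and again replicate 2 was the lowest at 48 h. 3-ketoacyl-CoA synthase 11, an enzyme of very-long-chain fatty acids, had 69.4, 55.3 and 62.03 CPM at 48 h, against 11.9, 13.1 and 9.12 CPM at 0 h, with a log2 change of 2.45 ± 0.21 (SE; adjusted p = 0.00632). HSP70-18 had 127, 70.9 and 129 CPM at 48 h, against 12.7, 16.3 and 6.37 CPM at 0 h, while mitochondrial HSP90-6 had 0.335, 3.34 and 1.52 CPM at 48 h, against 51.2, 23.7 and 13.1 CPM at 0 h. The prolyl isomerase FKBP12 had 9.34, 6.45 and 5.37 CPM at 48 h, against 49.97, 42.3 and 40.4 CPM at 0 h, and AFP1, a repressor of abscisic acid responses, had 5.83, 6.69 and 4.54 CPM at 48 h, against 34.3, 51.3 and 96.6 CPM at 0 h. These entries were chosen after their values were seen, except ABCG36, metacaspase-1, the isoprenylated protein, the ketoacyl-CoA synthase and the heat shock proteins, which the rule for named entries picked.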
